A study of Mus musculus with 20 samples.

Results

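The 9 genes of the proximal part of mouse chromosome 6 that are described here, across 20 RNA-seq libraries, are Mios, Rpa3, Glcci1, Tes, Cav2, Met, Capza2, St7 and Cttnbp2. They make up 9 of the 21963 gene rows of the count table. St7, Met and Mios were chosen by their low values in untreated Mcu-/- macrophages in earlier results of these same data. The other 6 were named with them as genes of the same stretch, with those results known, and are not all of its genes. The untreated Mcu-/- and WT values of St7, Met and Mios are therefore a description and carry no test. Of the 9 genes, 8 passed the filter on low counts and Cttnbp2 did not.

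The cells were bone marrow-derived macrophages (BMDMs), grown from mouse marrow in medium conditioned by L929 cells, from WT mice and from Mcu-/- mice (KO below), both 15 to 25 weeks old, with male and female mice used. Mcu encodes the pore of the mitochondrial calcium uniporter. Per the text of the study, the KO was a floxed Mcu allele with Cx3cr1-cre, a Cre driven from a monocyte and macrophage gene. The sources used here do not state whether the WT mice were littermates or carried the Cre. There were 4 WT untreated, 4 KO untreated, 5 WT zymosan and 3 KO zymosan libraries, and 4 WT libraries with zymosan and BAPTA-AM. Zymosan, a yeast cell wall particle sensed by dectin-1 and TLR2, was given for 3 h at 2 particles per cell, and BAPTA-AM, a calcium chelator that enters cells, at 10 µM. The labels call the libraries biological replicates without naming the animals, so p-values measure the spread between these libraries. The count table numbers the KO zymosan columns 3, 4 and 5, and these numbers are used below.

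Each library held 14.4 to 24.0 M counts, and values below are normalized counts, that is, counts scaled by edgeR's TMM factors to a library of 20.6 M counts. Mcu reads were lower in every KO library, at 54.2 to 83.4 in KO and 134 to 172 in WT untreated macrophages, and at 74.6 to 82.0 and 126 to 149 with zymosan. KO untreated replicate 4 stood apart. Its chi-square distance per gene to the other 3 KO untreated libraries was 209 to 217, while the other 28 replicate pairs had 1.60 to 6.20. The 10 macrophage markers summed to 192165 normalized counts in it and to 318253, 324895 and 322734 in replicates 1 to 3, and the 10 fibroblast and stromal markers to 694 against 58, 79 and 45. The 3 KO zymosan libraries showed shifts in the same directions. Their macrophage marker sums were 231073 to 238852, against 353130 to 359466 in WT zymosan, and their fibroblast marker sums were 1101 to 1336, against 183 to 239. The 10 lymphocyte markers summed to 374 in replicate 4, against 1103 to 1144 in replicates 1 to 3, and to 257 to 277 in KO zymosan, against 628 to 758 in WT zymosan, with Cd3e, Cd3d and Cd3g at or under 3 counts in both groups. The 8 dendritic cell markers summed to 105 in replicate 4, against 516 to 553 in replicates 1 to 3. With zymosan they summed to 273 to 291 in KO and 460 to 510 in WT. The 10 neutrophil markers summed to 3 in replicate 4, against 50 to 64 in replicates 1 to 3, and with zymosan to 11 to 16 in KO and 81 to 122 in WT. The 10 epithelial and endothelial markers summed to 566 in replicate 4, against 1094 to 1142 in replicates 1 to 3. With zymosan they summed to 586 to 709 in KO and 945 to 1019 in WT. These sums do not give the direction of single genes. At an edgeR adjusted p under 0.05 with zymosan, 3 of 6 tested epithelial and endothelial markers were higher in KO and 1 lower (median log2 fold change 1.48). Of 3 tested dendritic and 4 tested lymphocyte markers, 1 each was lower and 0 higher (medians 0.21 and −0.29). All 3 tested neutrophil markers were lower. Of all genes, 31.8% were higher and 30.3% lower. Lum, Pdgfra and Thy1 of the fibroblast list, Flt3 and Clec9a of the dendritic list and Ly6g and Mpo of the neutrophil list were at or under 3 counts in KO zymosan, while all 10 macrophage markers were above it in both KO groups. Across 11707 genes, the difference of replicate 4 from replicates 1 to 3 had a Pearson r of 0.78 with the difference of KO zymosan from WT zymosan, 2 differences that share no library, and of 0.22 with the zymosan response of WT. This r is a description across genes of the same libraries, which are not independent replicates. Results that rest on replicate 4 are given below with and without it, and the part of this shared shift in the zymosan comparison of KO with WT was not tested.

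The 9 genes have unrelated tasks. St7 encodes a membrane protein first described as a candidate tumour suppressor, and Met the receptor tyrosine kinase for hepatocyte growth factor. Mios encodes a subunit of GATOR2, the complex that passes amino acid signals to the Rag GTPases and mTORC1 at the lysosome. Rpa3 is the smallest subunit of replication protein A, which coats single-stranded DNA. Tes (testin) is a LIM protein of focal adhesions, and Capza2 is the alpha 2 subunit of the protein that caps actin filaments. Cav2 (caveolin-2) assembles with caveolin-1 in caveolae. Glcci1 is named for its induction by glucocorticoids, and Cttnbp2 binds cortactin, mainly in neurons.

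In the mm10 build, the 9 genes lie on chromosome 6 in 2 clusters. On one side are Mios (ENSMUSG00000042447, 8209222 to 8236274, plus strand), Rpa3 (ENSMUSG00000012483, 8255936 to 8259173, minus strand) and Glcci1 (ENSMUSG00000029638, 8509600 to 8597548, plus strand). On the other are Tes (ENSMUSG00000029552, 17065149 to 17105828), Cav2 (ENSMUSG00000000058, 17281185 to 17289115), Met (ENSMUSG00000009376, 17463800 to 17573980), Capza2 (ENSMUSG00000015733, 17636234 to 17666972) and St7 (ENSMUSG00000029534, 17692933 to 17943025), all on the plus strand, and Cttnbp2 (ENSMUSG00000000416, 18366478 to 18514843) on the minus strand. Mcu lies on chromosome 10 and Cx3cr1 on chromosome 9. Glcci1 shares 5412 exonic bases on the same strand with Gm45062, which has its own row in the table, so that reads from the shared part cannot be assigned and the Glcci1 counts are uncertain.

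The promoter windows of St7, Met and Mios are shown because their low KO values led to this set of genes. Each runs from 250 bases before to 50 bases after a RefSeq start (GRCm38.p6, plus strand, 5′ to 3′). All 9 genes matched a window. The capitals mark motifs found on either strand, searched as the AP-1 site TGANTCA, the E-box CACGTG, the cyclic AMP response element TGACGTCA and the kappa-B stretch GGGNNTTTC.
St7, chr6:17693744-17694043: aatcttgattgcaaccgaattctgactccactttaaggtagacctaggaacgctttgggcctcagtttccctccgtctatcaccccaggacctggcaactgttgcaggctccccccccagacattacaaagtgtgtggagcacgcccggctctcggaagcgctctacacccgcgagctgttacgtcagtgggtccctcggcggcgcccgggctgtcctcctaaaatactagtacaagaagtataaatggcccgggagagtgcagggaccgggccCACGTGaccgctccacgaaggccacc
Met, chr6:17463707-17464006: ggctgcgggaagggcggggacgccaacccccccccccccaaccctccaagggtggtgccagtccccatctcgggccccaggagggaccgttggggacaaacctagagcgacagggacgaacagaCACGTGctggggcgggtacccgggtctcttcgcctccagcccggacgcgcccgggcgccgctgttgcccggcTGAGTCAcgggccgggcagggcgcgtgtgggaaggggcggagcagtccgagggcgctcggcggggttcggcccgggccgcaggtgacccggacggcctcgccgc
Mios, chr6:8208977-8209276: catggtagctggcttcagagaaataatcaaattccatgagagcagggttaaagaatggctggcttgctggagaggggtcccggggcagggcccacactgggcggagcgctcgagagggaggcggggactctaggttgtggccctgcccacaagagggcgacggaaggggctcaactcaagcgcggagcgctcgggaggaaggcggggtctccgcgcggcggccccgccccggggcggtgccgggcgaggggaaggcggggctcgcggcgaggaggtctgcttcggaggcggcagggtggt
An E-box stood 24 bases past the St7 start and 126 bases before the Met start, and 7.15% of 32851 promoter windows of the same length held one. Met also held an AP-1 site 54 bases before its start, a motif in 7.81% of windows. The Mios window held none of the 4 motifs, and a cyclic AMP response element (1.79% of windows) was in a window at an alternative St7 start. Of the other members, Cav2 held an AP-1 site, and no window of a member held the kappa-B stretch (4.36% of windows). Bases G and C made up 58.7% of the St7 window, 75.7% of the Met window and 69.0% of the Mios window. These are matches of letters and were not tested as binding sites.

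In untreated WT macrophages the levels of the members spanned from Capza2 to Cttnbp2. Per kilobase of annotated exon, Capza2 had 2788 normalized counts (range 2686 to 2889.7, n = 4), Tes 479 (461 to 489), Cav2 294 (262 to 316) and Rpa3 145 (117 to 167). St7 had 64.3 (60.6 to 68.4), Mios 52.2 (47.8 to 56.6), Met 36.8 (35.8 to 38.4) and Glcci1 0.808 (0.225 to 1.47). No 2 neighbours in this order overlapped in range over the 4 libraries. Cttnbp2 had 0 counts in all 13 WT libraries and 0, 1 or 2 counts in the 7 KO libraries, at or under the floor of 3 counts per library, so that it was not detectable at this depth and has no fold change.

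**Figure D1:**
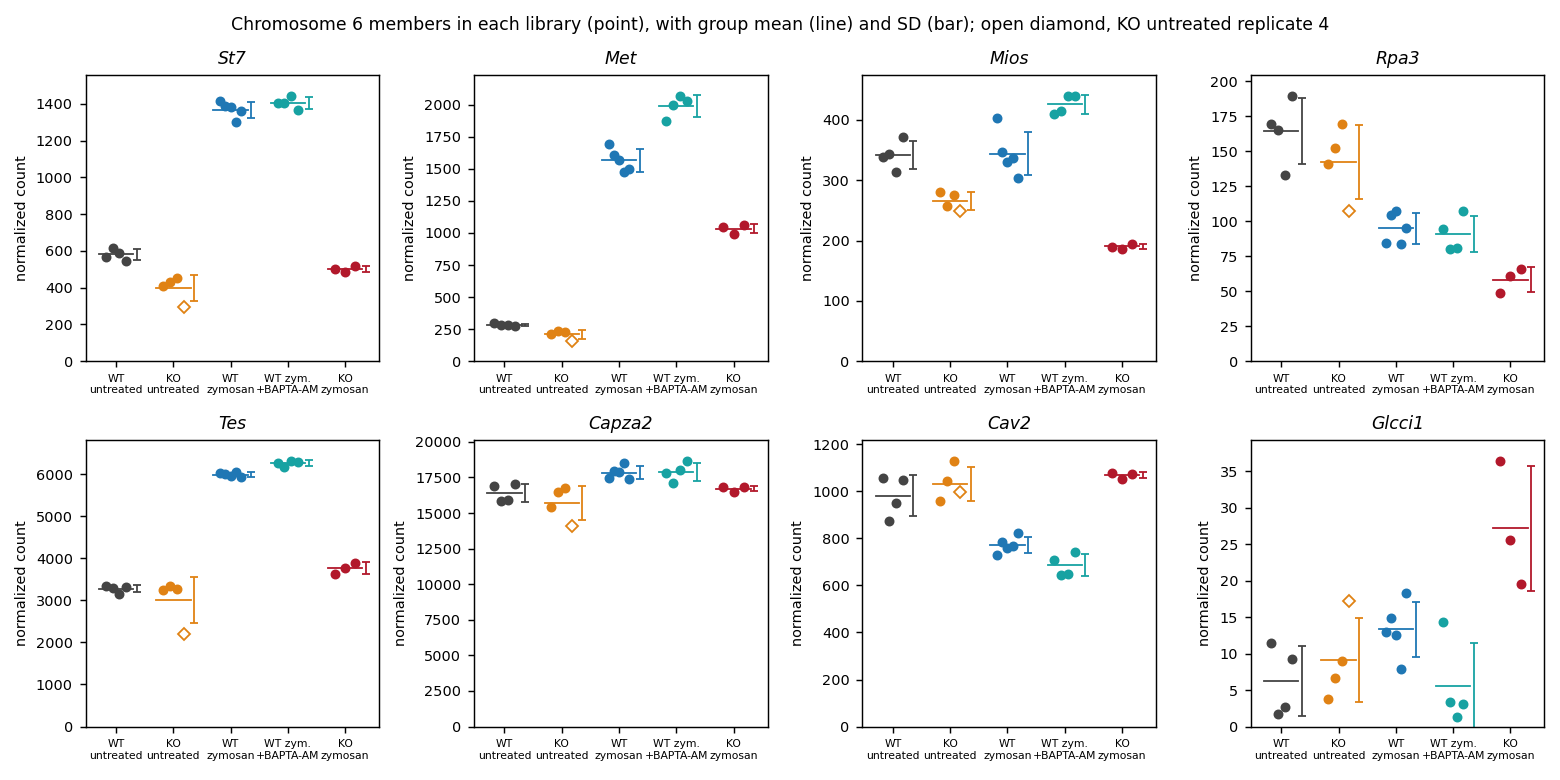
Normalized counts of the 8 tested members (y axis, from 0) in each library (points) of the 5 groups (x axis), with the group mean (line) and SD (bar). The open diamond is KO untreated replicate 4. St7 in KO zymosan (485 to 519.8) lies below WT untreated (548 to 618).

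St7, Met and Mios were lower in every KO untreated library than in any WT untreated library. In the 4 WT untreated libraries it had 569, 618, 590.3 and 548 normalized counts, and in the 4 KO untreated libraries 410.0, 433, 454 and 294. The groups did not overlap, and replicate 4 had the lowest KO value. Met had 295, 279.8, 281 and 275 in WT untreated and 215, 238, 229.6 and 156 in KO untreated libraries. Mios had 339, 344, 313 and 371 in WT untreated and 280.4, 258, 275 and 249 in KO untreated libraries. Neither gene overlapped between the genotypes, and replicate 4 was again lowest for both. The fitted log2 fold changes of KO against WT were −0.55 for St7, −0.43 for Met and −0.36 for Mios, and −0.43, −0.31 and −0.33 without replicate 4. All 3 genes were among the genes called lower in this contrast, which chose them, and nothing is read from that. At an edgeR adjusted p under 0.05, 0.350% of 11707 genes were called (0.128% higher and 0.222% lower), and 3.35% without replicate 4.

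Library by library, the log2 difference from the WT mean in replicates 1 to 4 was −0.50, −0.42, −0.36 and −0.98 for St7, −0.39, −0.25, −0.30 and −0.85 for Met, and −0.28, −0.40, −0.31 and −0.46 for Mios. The other members did not share this. Tes had −0.01, 0.03, −0.01 and −0.58, and Rpa3 −0.21, −0.10, 0.05 and −0.60, so that only replicate 4 lay below all 4 WT libraries for either. Capza2 lay between −0.22 and 0.03 and Cav2 between −0.03 and 0.21. Over the 8 tested members the median log2 fold change was −0.16, and −0.05 without replicate 4, beside 0.02 over all genes tested. This median includes St7, Met and Mios, chosen for low values in this contrast, which pulls it downward, so nothing is read from it. Of the others, Tes had a fitted value of −0.12, Capza2 of −0.06 and Cav2 of 0.07. For Glcci1, with 2 to 21 counts per untreated library, the fitted value was 0.56 with a standard error of 0.59, and it was 0.09 without KO replicate 4 and 0.23 to 1.079 without 1 of the WT libraries. For Rpa3 the fitted value was −0.20, and −0.08 without replicate 4.

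**Figure D2:**
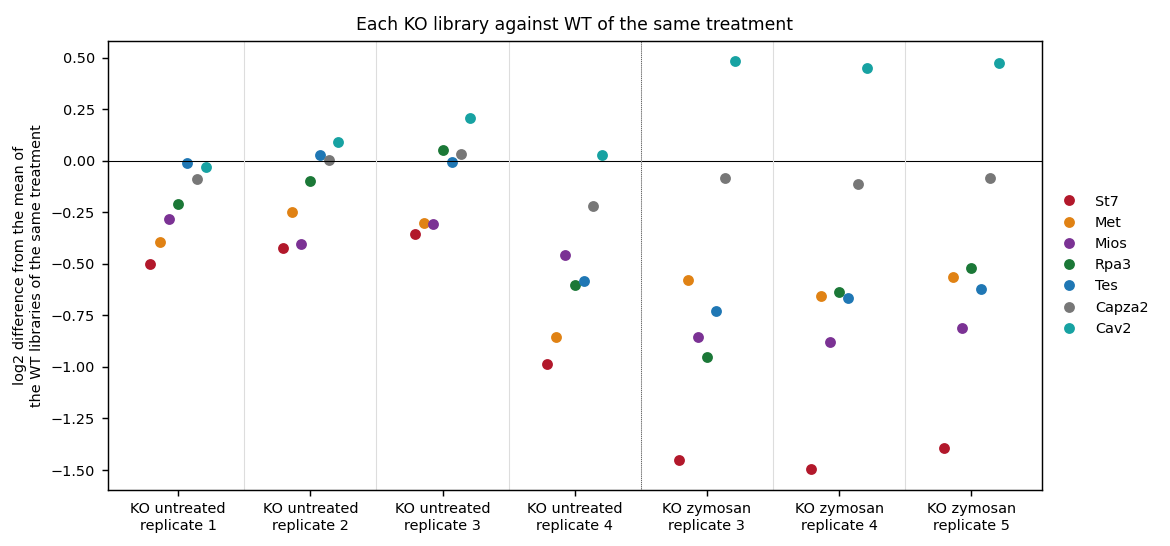
Log2 difference of each KO library (x axis) from the mean of the WT libraries of the same treatment (y axis) for 7 members, without Glcci1. St7, Met and Mios lie below 0 in all 7 KO libraries, while Tes lies between −0.01 and 0.03 in KO untreated replicates 1 to 3 and between −0.73 and −0.62 with zymosan.

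The comparison of KO with WT after zymosan rests on libraries that were not used to choose St7, Met and Mios. The labels do not name the animals, so these libraries may share animals with the untreated ones and need not be independent of the choice. With zymosan, 5 members were lower in KO and 1 was higher. In this contrast 62.1% of all genes were called, 31.8% higher and 30.3% lower (70.1% in all without KO untreated replicate 4), so a call by itself was common. The median log2 fold change was −0.64 over the 8 tested members and 0.02 over all genes. This median includes St7, Met and Mios, chosen for low untreated KO values, and does not describe the stretch as a whole. The other members were mixed, with Rpa3 at −0.70, Tes at −0.67, Capza2 at −0.09, Cav2 at 0.47 and Glcci1 at 1.01.

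St7 had 1414, 1389, 1382, 1299 and 1359.9 normalized counts in WT zymosan and 500.0, 485 and 519.8 in KO zymosan libraries. The KO libraries lay below all WT zymosan libraries and also below all WT untreated libraries. The log2 fold change was −1.45 (adjusted p = 9.96e-10 by edgeR, SE 0.09), a level 2.73-fold lower in KO, and the exact two-sided permutation p over the libraries was 0.0179, the smallest that 3 against 5 libraries allow. Mios had 403, 346, 330.1, 338 and 304 in WT zymosan and 189, 186 and 195 in KO zymosan libraries, a log2 fold change of −0.85 (adjusted p = 1.5e-07 by edgeR, SE 0.08). Met had 1694, 1610.2, 1569, 1473 and 1495 in WT zymosan and 1048, 993 and 1060.1 in KO zymosan libraries, a log2 fold change of −0.60 (adjusted p = 1.3e-05 by edgeR, SE 0.09). For both genes the genotypes did not overlap.

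Among the neighbours, Tes had 6024, 5994, 5943, 6045 and 5937 in WT zymosan and 3619.9, 3771 and 3893 in KO zymosan libraries. Its log2 fold change was −0.67 (adjusted p = 8.83e-06 by edgeR, SE 0.09), and all 3 KO libraries lay under the WT range. Rpa3 had 84.5, 104, 107, 83.5 and 94.8 in WT zymosan and 48.5, 60.6 and 65.6 in KO zymosan libraries, a log2 fold change of −0.70 (adjusted p = 0.00169 by edgeR, SE 0.17). Cav2 moved the other way, with 728, 783, 759, 769 and 824 in WT zymosan and 1080.0, 1054 and 1073 in KO zymosan libraries, a log2 fold change of 0.47 (adjusted p = 1.29e-05 by edgeR, SE 0.07). Cav2 was the only tested member called higher, and its 3 KO values lay above every WT zymosan value.

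Capza2 and Glcci1 did not pass the test. Capza2, the most abundant member, ranged from 17382 to 18534 in WT zymosan and from 16512 to 16826 in KO zymosan libraries, with a log2 fold change of −0.09 (adjusted p = 0.130 by edgeR). Glcci1 had 7.90 to 18.3 and 19.5 to 36.4, with a log2 fold change of 1.01 (adjusted p = 0.0839 by edgeR, SE 0.49). Both passed once KO untreated replicate 4 was left out, at edgeR adjusted p = 0.00987 and 0.0155. The biological coefficient of variation of the fit, its common spread, was 12.4% with that library and 3.56% without it.

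Several of these differences resembled what set KO untreated replicate 4 apart from replicates 1 to 3, without zymosan. The log2 difference of replicate 4 from the mean of replicates 1 to 3 was −0.59 for Tes, −0.54 for Met and −0.52 for Rpa3, close to their differences of −0.67, −0.60 and −0.70 between genotypes with zymosan. For St7 it was −0.56, beside −1.45. For Mios it was −0.12, beside −0.85, and for Cav2 −0.06, beside 0.47. The summed macrophage markers were lower and the summed fibroblast markers higher in these same libraries, as given above. Gene by gene, 4 of the 10 macrophage markers were called higher and 5 lower in KO with zymosan by edgeR (median log2 fold change −0.01). Of 6 tested fibroblast markers, 5 were called higher and 0 lower (median 1.94). Beside these, 31.8% of all genes were called higher and 30.3% lower. In bulk RNA, fewer cells of a type and less RNA per cell cannot be told apart.

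Zymosan raised Met and St7 in WT macrophages, while Cav2 and Rpa3 fell and Mios did not pass the test. In this comparison 69.1% of all genes were called, 32.4% higher and 36.8% lower. The untreated WT libraries took part in the choice of St7, Met and Mios. An untreated WT value that is high for that reason moves the WT response downward. The p-values of St7, Met and Mios here are therefore not independent of the choice. From the untreated values above, Met rose by 2.47 on the log2 scale, a 5.54-fold change (adjusted p = 4.48e-15 by edgeR, SE 0.09), and all 5 zymosan libraries lay over all 4 untreated ones. St7 rose by 1.23, or 2.35-fold (adjusted p = 1.23e-10 by edgeR, SE 0.08). Tes, at 3342, 3287, 3154 and 3316 untreated, rose by 0.87 (adjusted p = 2.29e-08 by edgeR, SE 0.08). Rpa3, at 169.6, 165, 133 and 189.6 untreated, fell by 0.79 (adjusted p = 5.59e-05 by edgeR, SE 0.14), and Cav2, at 1055, 873, 950.3 and 1048 untreated, fell by 0.34 (adjusted p = 6.11e-05 by edgeR, SE 0.06). Capza2 was 0.12 higher (adjusted p = 0.0338 by edgeR), a call that 8 alternatives lost. Mios differed by 0.01 (adjusted p = 0.902 by edgeR, SE 0.07) and Glcci1 by 1.11 (adjusted p = 0.0861 by edgeR, SE 0.56).

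These directions are relative to TMM scaling. With library totals in place of TMM, the median log2 fold change of all genes moved from −0.04 to −0.54 in WT and from −0.06 to −0.58 in KO, and the share of called genes that were higher from 46.8% to 18.6% and from 46.5% to 19.0%. On that scale Capza2 in WT was at −0.37 and Mios at −0.48, while Met, St7, Tes, Rpa3 and Cav2 kept the sign of their WT responses.

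**Figure D3:**
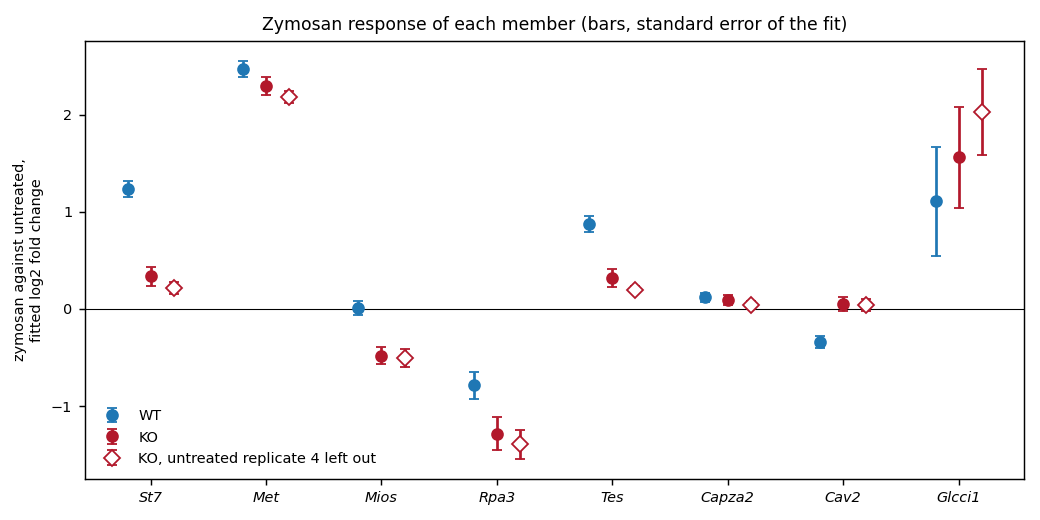
Fitted log2 fold change of zymosan against untreated (y axis) for each tested member (x axis) in WT (blue), in KO (red) and in KO without untreated replicate 4 (open diamonds), with bars for the standard error of the fit. St7 was at 1.23 in WT and 0.33 in KO, while the Met responses of 2.47 and 2.30 lie close together.

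In KO macrophages, 73.8% of all genes responded to zymosan (34.3% higher and 39.4% lower), and 81.5% without untreated replicate 4. The untreated KO values of St7, Met and Mios chose these genes for being low, which moves their KO responses upward, so these are given without a test. Met was at 2.30, or 4.92-fold (2.18 without replicate 4), St7 at 0.33, or 1.26-fold (0.22), and Mios at −0.48 (−0.51). Among the other members, Tes rose by 0.32 (adjusted p = 0.00483 by edgeR, SE 0.09), and by 0.20 without replicate 4, a call that was lost with the groups compared alone (adjusted p = 0.104). With library totals St7 and Tes were at −0.19 and −0.21. Rpa3 fell by 1.29 (adjusted p = 2.18e-06 by edgeR, SE 0.17), and by 1.39 without replicate 4. Glcci1 rose by 1.56 (adjusted p = 0.0117 by edgeR, SE 0.52), and by 2.03 without replicate 4, and the call was lost with library totals (adjusted p = 0.0677) and without KO zymosan replicate 3 (adjusted p = 0.0644). Cav2, at 959, 1044, 1129 and 997 untreated, was at 0.05 and Capza2 at 0.09, neither past the test with or without replicate 4.

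The difference between the responses, KO minus WT, was tested as an interaction. It shares the untreated libraries whose values chose St7, Met and Mios, so the p-values of these genes are not independent of that choice. A lower untreated KO value or a higher untreated WT value makes this difference less negative. In all, 35.2% of genes were called, 1779 genes higher and 2343 lower (60.3% without untreated replicate 4), and the median was −0.33 over the 8 members and −0.01 over all genes. The member median includes St7, Met and Mios, and the other members lay between −0.55 (Tes) and 0.46 (Glcci1). The St7 response was smaller in KO by 0.90 (adjusted p = 4.14e-05 by edgeR, SE 0.13), and by 1.02 without replicate 4. The Tes difference was −0.55 (adjusted p = 0.00297 by edgeR, SE 0.13), and −0.67 without replicate 4. The Mios difference was −0.49 (adjusted p = 0.00258 by edgeR, SE 0.11), and −0.52 without replicate 4. The Cav2 difference was 0.40 (adjusted p = 0.00353 by edgeR, SE 0.09), from the fall in WT beside the value near 0 in KO.

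Met, at −0.17 (adjusted p = 0.291 by edgeR), and Rpa3, at −0.50 (adjusted p = 0.0867 by edgeR), did not pass, but both did without untreated replicate 4, at −0.29 (adjusted p = 0.00389) and −0.61 (adjusted p = 0.00615). Capza2 and Glcci1 did not pass with or without it. Against each KO untreated library in turn, replicates 1 to 4, the KO response of St7 was 0.29, 0.21, 0.14 and 0.77, beside 1.24 in WT. For Tes it was 0.21, 0.17, 0.21 and 0.78, beside 0.87 in WT, and for Mios −0.56, −0.44, −0.53 and −0.39, beside 0.01 in WT. Replicate 4 thus gave a Tes response near that of WT, and St7 and Mios responses below that of WT.

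BAPTA-AM in WT macrophages with zymosan raised 2 members, Met and Mios. Of all genes 12.8% were called, 6.43% higher and 6.33% lower (31.8% in all without KO untreated replicate 4). With library totals the share of called genes that were higher moved from 50.4% to 74.9%. Met had 1870.1, 1995, 2069 and 2027 normalized counts with BAPTA-AM, above all 5 libraries without it, a log2 fold change of 0.34 (adjusted p = 0.00484 by edgeR, SE 0.08). Mios had 410.1, 414, 439 and 439.9, also above all 5, a log2 fold change of 0.31 (adjusted p = 0.00673 by edgeR, SE 0.07). St7 had 1407, 1405, 1445 and 1366, at 0.04 (adjusted p = 0.844 by edgeR, SE 0.08). Tes (0.06), Capza2 (0.01), Rpa3 (−0.06), Cav2 (−0.17) and Glcci1 (−1.22) did not pass the test. Met and Mios were thus higher with the chelator and lower in KO, each against the same 5 WT zymosan libraries, so the 2 comparisons are not independent.

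Of the genes lying between Mios and Cttnbp2, 10 of 12 tested lay between −0.08 and 0.21 in KO against WT untreated without replicate 4, and Cav1 and Ica1 lay lower than St7, Met and Mios. Of 21 further genes of the table in that span, 12 were tested, and 0 were called in KO against WT untreated by edgeR or by DESeq2 (2 at an unadjusted edgeR p under 0.05, and 1 called without replicate 4), with a median log2 fold change of 0.01. Of all genes, 0.350% were called by edgeR, and 3.35% without replicate 4. With so few calls over all genes, 0 of 12 does not show that these neighbours were unchanged. Without replicate 4, Umad1 was at 0.09, Ndufa4 at −0.08, Phf14 at 0.00, Tmem106b at −0.02, Tmem168 at −0.01, Bmt2 at −0.01, Gpr85 at 0.00, 2610001J05Rik at −0.01, Mdfic at −0.04 and Tfec at 0.21. Ica1 was at −0.79, with a mean of 14.7 normalized counts in WT. The gene called without replicate 4 was Cav1, the caveolin-1 gene next to Cav2, at −1.37 (adjusted p = 0.000989 by edgeR) and −0.90 with all libraries (adjusted p = 0.206 by edgeR). It had 31.6, 29.7, 32.6 and 33.5 normalized counts in WT untreated and 13.0, 8.06, 15.8 and 31.9 in KO untreated libraries, the last in replicate 4.

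With zymosan, 8 of these 12 genes were higher in KO, 1 was lower and the median was 0.35. Of all genes, 31.8% were higher and 30.3% lower, with a median of 0.02. Tfec, a transcription factor of the Mitf family expressed in macrophages, was higher by 1.69 (adjusted p = 1.81e-11 by edgeR). Ica1 was higher by 1.70, but its KO values of 7.18 to 32.6 normalized counts overlapped the WT values of 3.39 to 10.5. Cav1 was higher by 1.25, Gpr85 by 0.96, Bmt2 by 0.49, Phf14 by 0.41, Tmem106b by 0.30 and Tmem168 by 0.25. Ndufa4, a subunit linked to cytochrome c oxidase, was lower by 0.22 on the log2 scale, while Umad1 (−0.14), 2610001J05Rik (0.13) and Mdfic (0.23) did not pass. Of the members, St7, Met, Mios, Tes and Rpa3 were thus lower with zymosan, Cav2 was higher, and Capza2 and Glcci1 did not pass. Of the 12 tested neighbours within the span, 8 were higher. The members were named with earlier results of these data known, so this contrast of members with neighbours is a description. Over the whole stretch from 3 to 30 Mb, 24 of 51 tested genes other than the members were higher and 10 lower, and over the rest of chromosome 6, 173 and 141 of 486.

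**Figure D4:**
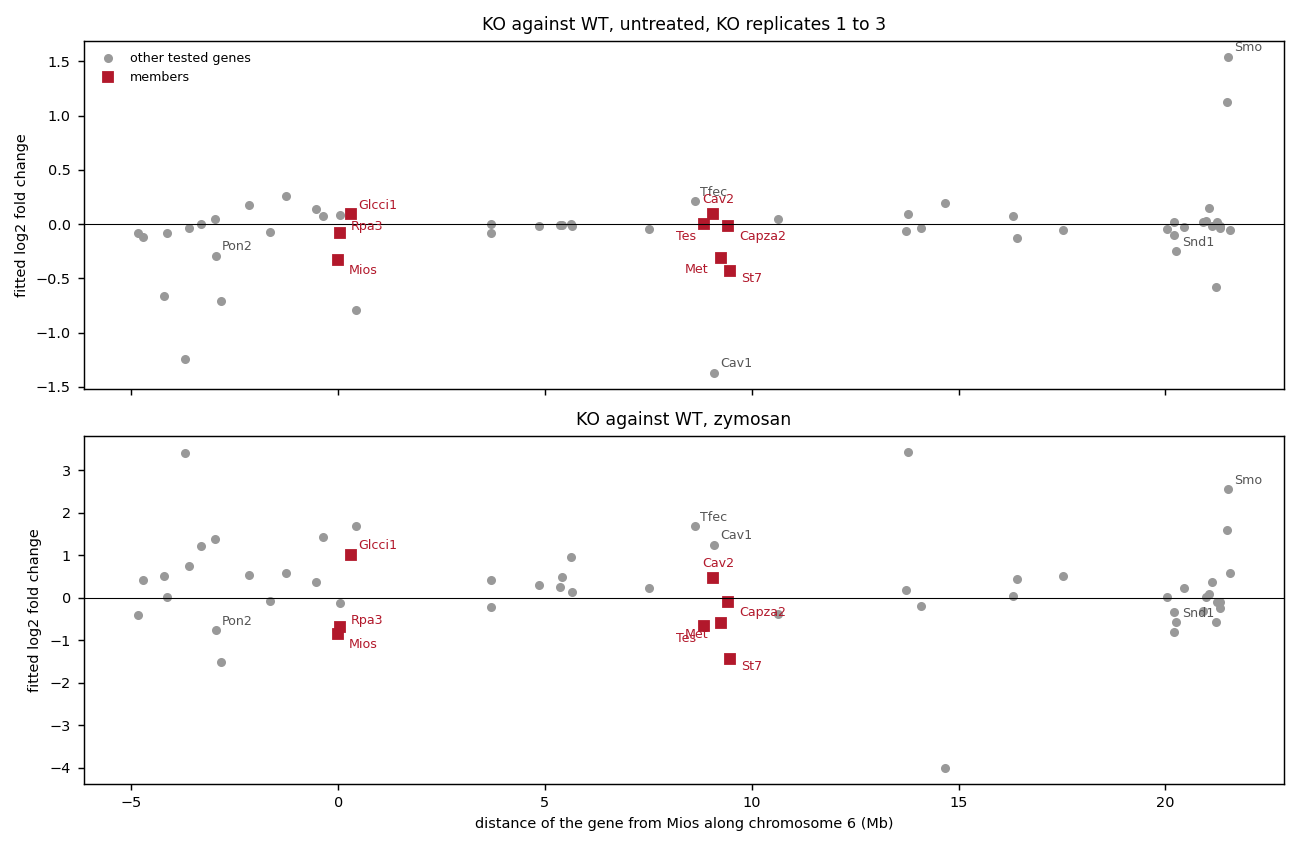
Fitted log2 fold change of KO against WT (y axis) for the members (red squares) and the other tested genes between 3 and 30 Mb of chromosome 6 (grey points), by distance from Mios in Mb (x axis), untreated without KO replicate 4 (top) and with zymosan (bottom). St7, Met and Mios lie at −0.43, −0.31 and −0.33 in the upper panel, where Cav1, next to Cav2, lies lower at −1.37 and Smo stands at 1.54.

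Further along the chromosome, 2 genes of the stretch were called in KO against WT untreated, where 0.350% of all genes were. Smo, the Hedgehog signal transducer, had 47.4, 57.7, 52.9 and 32.4 normalized counts in WT untreated and 133, 153, 138 and 200.4 in KO untreated libraries. It was higher by 1.70 (adjusted p = 0.000163 by edgeR, SE 0.20), by 1.54 without replicate 4, and by 2.55 with zymosan (adjusted p = 1.92e-08 by edgeR). Snd1, a nuclease domain protein that binds RNA, had 4607, 4739, 4779 and 4427 in WT untreated and 4026, 3831, 3854 and 3188 in KO untreated libraries. It was lower by 0.32 on the log2 scale (adjusted p = 0.0109 by edgeR, SE 0.06), a call that was lost with the groups compared alone and without WT untreated replicate 2, and by 0.58 with zymosan (adjusted p = 2.39e-07 by edgeR). Neither gene overlapped between genotypes in either treatment. Outside the span of the members, Pon2 (−0.76), C1galt1 (1.44), Slc25a13 (0.55), Sdhaf3 (0.57), Asns (0.38) and Tspan33 (1.59) were also called in KO against WT with zymosan. They were taken by their untreated adjusted p and are not all the genes called there. Larger changes were those of Cped1 (3.44), Col1a2 (3.40) and Ptprz1 (−4.00), with WT zymosan means of 5.97, 45.1 and 19.8 normalized counts.

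The known partners of the members were counted from lists written with earlier results of these data known. Beside these counts, 31.8% of all genes were higher and 30.3% lower in KO with zymosan, with a median log2 fold change of 0.02, and 32.4% were higher and 36.8% lower in the WT response. In KO against WT untreated, 0 genes of the Met receptor, GATOR, RPA, actin and cortactin lists were called by edgeR, while 3, 6, 1, 3 and 2 had an unadjusted p under 0.05 and DESeq2 called 1 gene of the Met receptor list and 0 of the others. Without replicate 4, edgeR called 1, 0, 2, 2 and 2. Of all genes, 0.350% were called in this untreated contrast, and 3.35% without replicate 4. Of 19 tested genes of the Met receptor pathway, 4 were higher and 10 lower in KO with zymosan (median −0.11), and in the WT response 10 were higher and 4 lower. Plau and Plaur, urokinase and its receptor, were higher in KO by 2.81 and 1.65, and Ptpn1, a phosphatase that acts on receptor kinases, lower by 1.24 on the log2 scale. Cd44, Gab1 and Plaur rose in WT with zymosan by 2.91, 2.18 and 2.04.

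Of 27 tested genes of GATOR and Rag amino acid sensing, 2 were higher and 11 lower in KO with zymosan (median −0.16), and 10 and 10 in the WT response. Flcn and Fnip2, partners in a complex that acts on the Rag GTPases, were lower in KO at −1.55 and −0.79, and Rptor, the raptor subunit of mTORC1, was higher by 1.04. In the WT response Wdr59, another GATOR2 subunit, rose by 1.98, Fnip2 rose by 1.69 and Sesn1, an inhibitor of GATOR2, was at −2.75. Of 18 RPA and single-stranded DNA partners, 3 were higher and 10 lower in KO with zymosan (median −0.36), among them Rfc5 (−1.33) and Rfc3 (0.81), and 3 were higher and 9 lower in the WT response, with Pcna at 1.81, Rfc1 at −1.15 and Etaa1 at −2.08.

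Of 17 actin capping and Tes partners, 6 were higher and 9 lower in KO with zymosan (median −0.33). Twf2, a twinfilin, was at −1.09, Zyx (zyxin, which binds testin) at −0.83 and Capg, a gelsolin-like capping protein, at 1.07. Zymosan in WT raised 8 and lowered 4, with Vasp at 0.60, Capg at 0.56 and Twf2 at −1.22. Of 15 cortactin and striatin partners, 8 were higher and 2 lower in KO with zymosan (median 0.17), with Ppp2r1a at 0.44 and Stk25 at −0.60. In the WT response 5 were higher and 7 lower, with Pdcd10 at 0.93, Sike1 at −0.78 and Cttnbp2nl at −1.82.

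Among the paralogs of the members, 2 of 7 tested were higher and 2 lower in KO with zymosan (median 0.03). St7l, the paralog of St7, was higher by 0.50 (adjusted p = 0.00292 by edgeR) where St7 was lower, and Capza1 was at −0.58 (adjusted p = 3.44e-05 by edgeR) beside −0.09 for Capza2. In the WT response 2 paralogs were higher and 3 lower, with Fam117b, the paralog of Glcci1, at 0.56. Of 4 tested caveola and cavin genes, 3 were higher and 1 lower in KO with zymosan (median 1.14). Cav1 was at 1.25, Pacsin2 at −0.26, and Cavin1, which coats caveolae, and Ehd2, an ATPase at their neck, both named after their values were seen, were at 1.04 and 1.36. Untreated, 1 of these 4 was called, Cavin1 at −1.42 (adjusted p = 0.00417 by edgeR), with 37.1 to 49.7 normalized counts in WT and 12.2 to 19.6 in KO libraries, and 3 were called lower without replicate 4. Of all genes, 0.350% were called untreated, and 3.35% without replicate 4. In the WT response 2 were higher and 1 lower, with Pacsin2 at 0.36.

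Across the 20 libraries, the genes whose log2 level followed that of St7 most closely were Kcna2 (Pearson r = 0.98), Gramd1a (0.98), Prep (0.98), Fcgr4 (0.98) and Pstpip1 (0.98), none of them on chromosome 6. Of the members, Tes followed it at 0.97 and Met at 0.86, and Cav2 ran opposite at −0.90. These are descriptions over 5 groups that differ in treatment and genotype, and the libraries of a group share both.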

How the data were processed

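Bone marrow-derived macrophage RNA was sequenced in 20 libraries of 5 groups. Per the methods of the study, the authors trimmed reads with Cutadapt, aligned them to mm10 with STAR and counted them per gene with HTSeq, and the labels also list FastQC, MultiQC and DESeq2. Versions, the annotation and the strand setting of the counting are not given in the sources used here. The deposited values are raw counts per gene, 14.4 to 24.0 M per library, and 0 columns were left unmapped. Intervals of depth cover counting error only.

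Counts were tested with edgeR 4.0.16 (limma 3.58.1, R 4.3.3) by its quasi-likelihood test, with TMM scaling and filterByExpr, 1 coefficient per group over all 20 libraries, and Benjamini-Hochberg adjustment over 11707 genes at a threshold of 0.05. Standard errors were computed as the log2 fold change over the root of the F statistic. Exact two-sided permutation tests used log2 of the normalized count plus 0.5. DESeq2 1.42.0 was an alternative. Other scalings, filters, sample sets, a replicate block and leaving out each library were also tried. On simulated data for KO against WT with zymosan (11485 genes, 200 changed by a log2 value of 1), edgeR recovered 179 with 7 false calls, and DESeq2 174 with 20. Python 3.11.15, scipy 1.17.1, pandas 2.3.3 and matplotlib 3.10.9 were used for tables and figures.

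The members and lists were chosen with earlier results of these data known. Named were all members, every tested gene between them, up to 8 called genes outside that span between 3 and 30 Mb, up to 3 called partners per list with at least 10 CPM on average in the higher group, in KO against WT with zymosan and in the WT response, and the 5 genes most like St7. Gene positions came from GENCODE M21 (GRCm38) and promoter windows from RefSeq (GRCm38.p6). Some genes that this rule names are not reported here.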

Additional observations from a re-analysis of the deposited data

Results flagged for a closer look

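Of 40 groups of 4 or 5 libraries examined, 2 held a library far from the others, where chance gives about 1 in 20. Tes had 2187.8 normalized counts in KO untreated replicate 4, below 3253 to 3336 in the other 3 libraries. Glcci1 had 14.3 in WT zymosan with BAPTA-AM replicate 1, above 1.31 to 3.37 in the other 3 libraries, from 1 to 13 counts.

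The zymosan response differed between KO and WT by the interaction test for 12 of 28 genes examined, where 35.2% of all genes were called. The 28 genes include St7, Met and Mios, chosen on untreated values. They also include genes outside the span that were kept because they were called in KO against WT. Their share is therefore not comparable with that of all genes. Among the members the log2 differences, KO minus WT, were −0.90 for St7, −0.55 for Tes, −0.49 for Mios and 0.40 for Cav2. Among the neighbours they were 2.15 for Cav1, 2.04 for Ica1, 1.52 for Tfec, 1.17 for Gpr85, 0.86 for Smo, 0.44 for Phf14, 0.19 for Tmem168 and −0.27 for Snd1. All 12 share the same untreated KO libraries, replicate 4 included.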

How the results depend on the processing

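Of the 8 tested members, 6 were called in KO against WT with zymosan (6 to 8 over all alternatives) and 6 in the WT response (5 to 7). In the KO response 6 were called (4 to 7), St7, Met and Mios included, whose untreated KO values chose them. In the difference of responses 4 were called (4 to 6). Of all genes, 62.1%, 69.1%, 73.8% and 35.2% were called in these comparisons, in that order. Without KO untreated replicate 4 the shares were 70.1%, 78.5%, 81.5% and 60.3%. A call by itself was thus common. With BAPTA-AM 2 members were called, 5 with the groups compared alone and 4 without KO untreated replicate 4 (2 to 4 leaving out 1 library). Of all genes 12.8% were called there, and 31.8% without KO untreated replicate 4. Of 51 tested neighbours, 2 were called untreated, 1 with the groups compared alone, 1 without WT untreated replicate 2 and 8 without KO untreated replicate 4 (1 to 8). With zymosan 34 were called (29 to 41). Of all genes, 0.350% were called untreated (3.35% without KO untreated replicate 4) and 62.1% with zymosan. The untreated median of the members, which includes St7, Met and Mios, chosen by this contrast, was −0.16 (−0.23 to −0.05). The cause of these shifts was not tested.

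With library totals, the zymosan response turned to −0.48 for Mios and −0.37 for Capza2 in WT, and to −0.19 for St7, −0.21 for Tes, −0.47 for Cav2 and −0.43 for Capza2 in KO, beside all-gene medians of −0.54 and −0.58. The WT response of Mios was −0.006 with at least 10 counts in every library, a filter that left no value for Glcci1, −0.03 without WT untreated replicate 3 and −0.051 without WT zymosan replicate 1 (−0.051 to 0.052 leaving out 1 library). The response difference became −0.068 for Glcci1 without WT untreated replicate 1 (up to 0.914 without KO untreated replicate 4) and 0.006 for Capza2 without KO untreated replicate 3 (down to −0.075 without KO untreated replicate 4). Capza2 with BAPTA-AM was at −0.013 with DESeq2's size factors and with its Wald test, −0.002 and −0.003 without WT zymosan replicates 1 and 5 and −0.015 without BAPTA-AM replicate 4 (up to 0.027 without BAPTA-AM replicate 2). The Capza2 call in the WT response was lost in 8 alternatives (adjusted p = 0.054 to 0.103, edgeR). With the groups compared alone the KO response of Tes had edgeR adjusted p = 0.104, and that of Glcci1 had 0.0677 with library totals and 0.0644 without KO zymosan replicate 3.

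Libraries with the same replicate number did not deviate together (correlations of −0.061 to 0.055). This cannot show whether they came from the same animal or preparation. With the number as a replicate block, 6, 5, 6, 4 and 2 members were called in KO against WT with zymosan, the WT response, the KO response, the difference and BAPTA-AM, 2 and 34 neighbours were called, and the untreated median was −0.165. Glcci1, at 1 to 30 counts, and Cttnbp2, at 0 to 2, were limited by depth.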
